A study of Mus musculus with 4 samples.

Results

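The Toll-like receptor genes Tlr1, Tlr2, Tlr4, Tlr6, Tlr7, Tlr8, Tlr9 and Tlr13, the co-receptor gene Cd14 and the adaptor gene Myd88, all genes of pathogen sensing, were followed in CD117-selected mouse bone marrow cells by RNA sequencing. They were chosen by name, through their Entrez identifiers, and all 10 were found among the 24415 identifiers of the deposited count table. One genotype, labelled inducible HIF-1a, carried an induced, constitutively active HIF-1α, which is the part of the transcription factor HIF-1 that oxygen destabilises, and wild-type mice were the controls. Each genotype had 2 libraries, and both had the strain background C57BL/6, 129X1/SvJ. Cells were enriched with magnetic beads against CD117 (KIT), a surface receptor of hematopoietic stem and progenitor cells, so the fraction can also hold other marrow cells. The inducing agent, the promoter or Cre driver of the transgene, the age and sex of the mice, the time after induction and the number of mice behind each library are not given in the sources. No label ties the 2 libraries of a genotype to different animals, so p-values here cover only the spread between libraries and that spread may be technical.

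Toll-like receptors are membrane proteins that recognise molecules shared by many microbes and signal through a cytoplasmic TIR domain. TLR1, TLR2, TLR4 and TLR6 sit at the cell surface, where TLR2 pairs with TLR1 or TLR6 to bind bacterial lipopeptides and TLR4 senses lipopolysaccharide handed over by CD14. TLR7, TLR8, TLR9 and TLR13 lie in endosomes and sense nucleic acids. MyD88 links all of these receptors to the IRAK kinases and on to NF-kB. Their transcripts are best known from monocytes, macrophages, neutrophils, dendritic cells and, for some of them, B cells, and some are also present in hematopoietic progenitors.

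Library totals were 24852965 and 26373177 counts for inducible HIF-1α and 27539149 and 22221798 counts for wild type. Levels are given as CPM, counts scaled to the library size after TMM normalization, and 3 counts corresponded to between 0.112 and 0.138 CPM. Kit, whose product was used for the selection, had 347.5 and 390.4 CPM in inducible HIF-1α and 267.6 and 242.2 CPM in wild type. Hif1a had 155.2 and 112.7 CPM in inducible HIF-1α and 179.0 and 168.4 CPM in wild type (adjusted p = 0.426), and the sources do not say if reads of the induced transcript are among its counts. Of 15 stem and progenitor cell markers, all detected, none was called by edgeR, DESeq2 or limma-voom, and 2 were higher and none lower at an unadjusted p under 0.05 in edgeR's quasi-likelihood test. The inducible HIF-1α pair differed more from each other than the wild-type pair did, with a chi-square per degree of freedom of 112 against 22.1. Of the erythroid genes listed, 10 of 10 were higher in inducible HIF-1α replicate 2 than in replicate 1. All 14 neutrophil markers and 13 of the 15 stem and progenitor cell markers were lower in replicate 2.

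All 10 genes had fold changes below 0, and 2 of them, Tlr1 and Tlr8, fell past the threshold (adjusted p under 0.05 over 14043 tested genes in edgeR's quasi-likelihood test), while none was higher. Over all genes tested the same threshold called 1.0% lower and 0.114% higher. In 9 of the 10 both inducible HIF-1α libraries lay below both wild-type libraries, the exception being Tlr4, and over all genes tested this held for 28.2%. At an unadjusted p under 0.05 the test took 8 of the 10 as lower, against 11.5% of all tested genes. The median log2 fold change was -1.60 over the 10 genes and 0.0010 over all tested genes, and the single values ran from -2.93 for Tlr8 to -0.22 for Myd88. Every one of the 10 passed the filter on low counts. In these bulk samples, fewer cells of a type and less RNA per cell cannot be told apart.

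**Figure D1:**
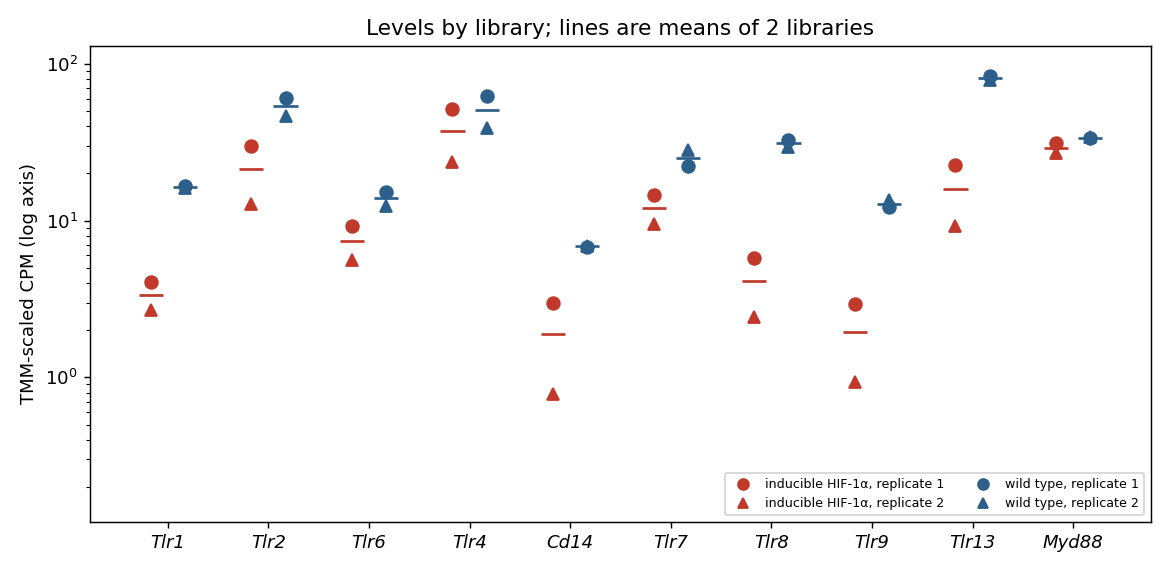
TMM-scaled CPM (log axis) of the 10 genes in each library, with inducible HIF-1α in red to the left of wild type in blue, circles for replicate 1, triangles for replicate 2 and lines for the mean of 2 libraries. The red points lie under the blue ones for every gene but Tlr4, where inducible HIF-1α replicate 1 (51.4 CPM) lies above wild-type replicate 2 (39.0 CPM), and the red triangle is under the red circle in all 10.

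Promoter windows from RefSeq (GRCm38.p6, from 250 bases before to 50 after an annotated start) were at hand for 7 of the 10 genes, and not for Tlr4, Tlr7 and Cd14. The windows of Tlr1, Tlr8, Tlr9 and Tlr13, the genes with the smallest p-values of the 10, and that of Myd88, which has the smallest fold change, are shown so that their letters can be compared. They are chr5:64933509-64933808 on the minus strand for Tlr1, chrX:167264280-167264579 on the minus strand for Tlr8, chr9:106222348-106222647 on the plus strand for Tlr9, chrX:106143025-106143324 on the plus strand for Tlr13 and chr9:119339969-119340268 on the minus strand for Myd88. Each runs 5′ to 3′ along its gene, and capitals mark matches on either strand to GAGGAA, the core bound by the myeloid and B cell factor PU.1 (TTCCTC on the other strand), to ACGTG or GCGTG, the core of a hypoxia response element, and to the core of an interferon-stimulated response element, which is GAAA, any 2 bases and GAAA again.
Tlr1: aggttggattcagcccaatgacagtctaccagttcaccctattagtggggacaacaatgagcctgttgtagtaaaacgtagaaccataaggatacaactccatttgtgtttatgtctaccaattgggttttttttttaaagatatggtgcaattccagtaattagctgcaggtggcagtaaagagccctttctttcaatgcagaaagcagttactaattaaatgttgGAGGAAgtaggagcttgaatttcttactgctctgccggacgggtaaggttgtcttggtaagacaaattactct
Tlr8: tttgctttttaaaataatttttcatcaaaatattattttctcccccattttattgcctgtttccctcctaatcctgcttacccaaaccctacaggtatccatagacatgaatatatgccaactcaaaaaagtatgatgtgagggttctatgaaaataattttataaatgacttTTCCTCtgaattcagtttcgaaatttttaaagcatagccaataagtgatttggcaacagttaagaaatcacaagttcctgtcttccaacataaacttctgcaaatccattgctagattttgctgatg
Tlr9: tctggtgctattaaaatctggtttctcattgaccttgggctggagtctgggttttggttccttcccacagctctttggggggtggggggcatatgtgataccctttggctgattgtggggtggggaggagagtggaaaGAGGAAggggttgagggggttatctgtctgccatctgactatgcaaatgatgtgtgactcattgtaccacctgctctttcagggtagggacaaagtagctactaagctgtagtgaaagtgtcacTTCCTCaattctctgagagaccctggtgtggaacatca
Tlr13: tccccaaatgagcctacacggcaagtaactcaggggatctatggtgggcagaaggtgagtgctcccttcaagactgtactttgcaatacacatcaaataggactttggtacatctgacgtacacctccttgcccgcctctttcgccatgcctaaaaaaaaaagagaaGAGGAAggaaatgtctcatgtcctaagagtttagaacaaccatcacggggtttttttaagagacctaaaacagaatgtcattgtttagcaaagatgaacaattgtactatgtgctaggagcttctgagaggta
Myd88: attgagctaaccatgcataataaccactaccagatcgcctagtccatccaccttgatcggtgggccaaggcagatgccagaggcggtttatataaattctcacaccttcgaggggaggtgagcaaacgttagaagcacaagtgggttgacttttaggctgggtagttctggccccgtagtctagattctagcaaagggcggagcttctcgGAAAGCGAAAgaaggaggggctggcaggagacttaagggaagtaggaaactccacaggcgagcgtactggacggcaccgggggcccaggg

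Where 1 of the 7 genes had more than 1 window, only the one furthest upstream was counted. The shares over the genome count every window, also further windows of the same gene, so the measures are not quite alike. GAGGAA was found in 4 of the 7 windows, those of Tlr1, Tlr8, Tlr9 and Tlr13, and in 28.3% of 32851 windows of the same length over the genome. In Tlr1 the match began 23 bases before the start, in Tlr13 83 bases and in Tlr8 77 bases before it, and Tlr9 had matches beginning 112 bases before and 12 bases after it. Neither form of the hypoxia core was found in any of these 7 windows, against 43.8% of all windows. A second, downstream Tlr1 window held the hypoxia core on both strands in overlapping letters, CACGTG, and a second Tlr6 window held the interferon core 2 times on the opposite strand. The interferon-stimulated response element core was found in the Myd88 window, beginning 40 bases before the start, and in 3.44% of all windows. None of the marked matches overlaps a match to another of the motifs. These are matches of letters in short windows, and no binding was measured.

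Tlr1, Tlr2 and Tlr6 encode the receptors for bacterial lipopeptides. Tlr1 (Entrez 21897; chromosome 5, 64924680 to 64933600) had 4.03 and 2.69 CPM in inducible HIF-1α, against 16.5 and 16.2 CPM in wild type. The wild-type libraries were nearly alike, and the higher of the inducible HIF-1α libraries was far under both. The log2 fold change was -2.28 ± 0.32 (SE; adjusted p = 0.0314), which is 4.86-fold lower. Tlr6 (Entrez 21899; chromosome 5, 64953092 to 64970942), which lies next to Tlr1 and encodes the other partner of TLR2, had 9.26 and 5.58 CPM in inducible HIF-1α and 15.3 and 12.4 CPM in wild type. Its groups did not overlap, but the log2 fold change of -0.90 ± 0.34 missed the threshold (adjusted p = 0.25). Tlr2 (Entrez 24088; chromosome 3, 83836272 to 83841824), the shared partner, had 29.9 and 12.7 CPM in inducible HIF-1α, against 60.7 and 46.5 CPM in wild type. Its log2 fold change was -1.33 ± 0.40 (adjusted p = 0.18).

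The level of Tlr1 relative to Tlr6 lay apart between the genotypes. The CPM of Tlr1 over that of Tlr6 was 0.435 and 0.483 in inducible HIF-1α, against 1.08 and 1.31 in wild type, without overlap between the groups. With 2 libraries per group an exact two-sided permutation test cannot go below a p of 0.333, so no test of this ratio was made. The pair was chosen for its shared partner after the values were seen. Of the 50-base stretches in Tlr1 coding transcripts, 14.8% also occur in Tlr6 transcripts, and 12.3% of those of Tlr6 occur in transcripts of Tlr1. How the authors counted reads that match both genes is not given, so part of the counts of either gene may be uncertain.

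Tlr4 and Cd14 encode the receptor for lipopolysaccharide and the protein that delivers it. Tlr4 (Entrez 21898; chromosome 4, 66827551 to 66846581) had 51.4 and 23.6 CPM in inducible HIF-1α and 62.2 and 39.0 CPM in wild type. The groups overlapped, and in both genotypes replicate 1 was well above replicate 2. Its log2 fold change was -0.43 ± 0.40 (adjusted p = 0.62). Cd14 (Entrez 12475; chromosome 18, 36725064 to 36726815) was the least counted of the 10, with 77 and 21 counts in inducible HIF-1α and 183 and 149 counts in wild type. In CPM this was 2.98 and 0.786 in inducible HIF-1α, against 6.83 and 6.88 in wild type. The log2 fold change was -1.86 ± 0.61 (adjusted p = 0.206). The difference between the inducible HIF-1α libraries was the widest of the 10 genes on the log scale (-1.44 log2 for replicate 2 over replicate 1, with 0.5 CPM added to each).

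Tlr7, Tlr8 and Tlr13 are X-linked and encode endosomal sensors of single-stranded RNA, with TLR13 recognising bacterial ribosomal RNA in mouse. Tlr8 (Entrez 170744; chromosome X, 167241123 to 167264329) had 5.77 and 2.43 CPM in inducible HIF-1α and 32.7 and 29.6 CPM in wild type. Its log2 fold change of -2.93 ± 0.42 was the lowest of the 10 (adjusted p = 0.0329), 7.60-fold lower. Tlr13 (Entrez 279572; chromosome X, 106143275 to 106160493) had 22.5 and 9.17 CPM in inducible HIF-1α, against 84.2 and 79.1 CPM in wild type. The gap between the groups was wide, but so was the spread between the inducible HIF-1α libraries, and the log2 fold change of -2.37 ± 0.41 lay just outside the threshold (adjusted p = 0.0567). Tlr7 (Entrez 170743; chromosome X, 167303380 to 167330574), the neighbour of Tlr8, had 14.5 and 9.47 CPM in inducible HIF-1α and 22.2 and 28.2 CPM in wild type. Its log2 fold change was -1.07 ± 0.29 (adjusted p = 0.15).

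The neighbours on the X chromosome also had ratios that did not overlap between the genotypes. Tlr8 CPM over Tlr7 CPM was 0.398 and 0.257 in inducible HIF-1α, against 1.47 and 1.05 in wild type, again a description chosen after the values were seen. The ratios of Tlr1 over Tlr2, Tlr13 over Tlr4 and Cd14 over Tlr4 did not overlap either. Such a separation was thus not particular to neighbours or to Tlr1 and Tlr6. No 50-base stretch of Tlr7, Tlr8 or Tlr13 was shared with transcripts of another gene. Because these genes are X-linked, genes that mark the sex of the mice were read too. The Y-linked Ddx3y had 213.4 and 194.2 CPM in inducible HIF-1α and 197.6 and 183.4 CPM in wild type, and Y-linked RNA was present in all 4 libraries. Of the 4 Y-linked genes read (Ddx3y, Eif2s3y, Kdm5d and Uty) none was called, and Uty had the widest gap, with 63.8 and 90.4 CPM in inducible HIF-1α and 52.1 and 44.1 CPM in wild type (log2 fold change 0.68 ± 0.24, adjusted p = 0.222). Xist, the RNA of the inactive X chromosome, had 2.32 and 1.38 CPM in inducible HIF-1α and 9.40 and 8.63 CPM in wild type (adjusted p = 0.057), and its part in the values of the X-linked receptors was not tested.

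Tlr9 encodes the endosomal sensor of unmethylated CpG DNA. The gene (Entrez 81897; chromosome 9, 106222598 to 106226876) had 2.94 and 0.935 CPM in inducible HIF-1α, from 76 and 25 counts, against 12.1 and 13.5 CPM in wild type, from 325 and 292 counts. The groups did not overlap, and the inducible HIF-1α libraries differed by -1.26 log2 (replicate 2 over replicate 1, with 0.5 CPM added to each). Its log2 fold change of -2.72 ± 0.53 was the second lowest of the 10 but did not pass (adjusted p = 0.0803).

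Myd88 (Entrez 17874; chromosome 9, 119335934 to 119340018), the adaptor shared by all these receptors, differed least. It had 31.1 and 27.1 CPM in inducible HIF-1α and 33.8 and 33.9 CPM in wild type, with no overlap but a log2 fold change of only -0.22 ± 0.21 (adjusted p = 0.63). In the GENCODE annotation 290 bases of its exons, 14.3%, overlap exons of Acaa1a on the opposite strand. The strand setting of the authors' counting is not given, so reads of the overlap may belong to either gene.

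Compared per length of exon, the order of the 10 genes was not the same in the genotypes. In inducible HIF-1α, Myd88 came first with 14.4 ± 1.41 CPM per kilobase (SD, n = 2), followed by Tlr2 with 7.07 ± 4.02 and Tlr4 with 6.86 ± 3.59. In wild type, Tlr13 came first with 20.1 ± 0.879 CPM per kilobase, followed by Tlr2 with 17.8 ± 3.33 and Myd88 with 16.7 ± 0.0232. Tlr13 was only the fourth in inducible HIF-1α, at 3.90 ± 2.32 CPM per kilobase. Tlr9 was last in both genotypes, with 0.558 ± 0.408 CPM per kilobase in inducible HIF-1α and 3.68 ± 0.274 CPM per kilobase in wild type. In inducible HIF-1α most neighbours in the order overlapped, and Myd88 stood clear of Tlr2 and Tlr1 of Tlr9. In wild type the neighbours that overlapped were Tlr13 with Tlr2, Tlr2 with Myd88, Tlr4 with Tlr8 and Tlr6 with Tlr9. Lengths are unions of exons of coding transcripts in GENCODE, which need not be the authors' gene models.

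**Figure D2:**
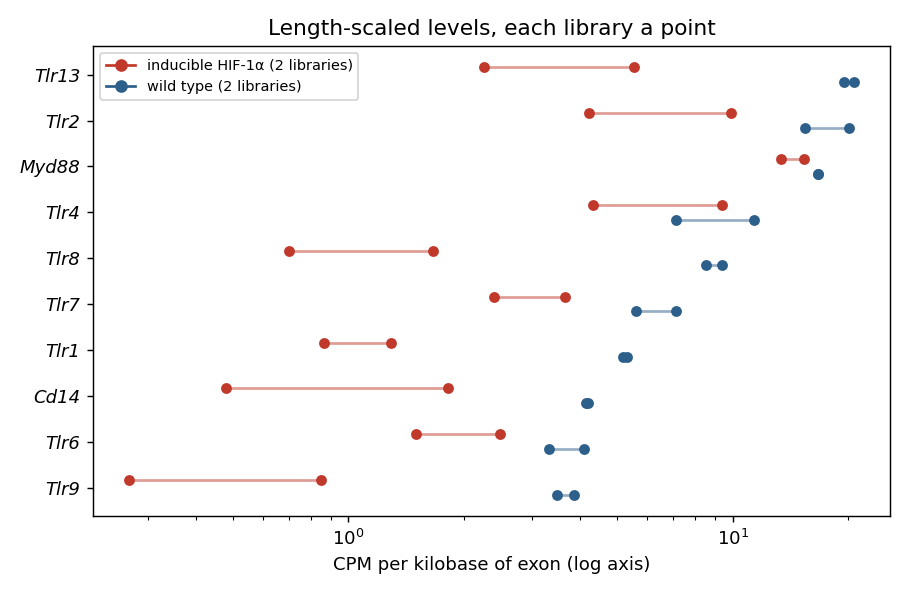
CPM per kilobase of exon (log axis) for the 10 genes, ordered by the wild-type mean, with each library a point, inducible HIF-1α in red above wild type in blue and a line joining the 2 libraries of a genotype. The wild-type points run from 20.1 for Tlr13 to 3.68 for Tlr9 on average, and Myd88 is the highest red entry at 14.4.

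The number of calls depended on single libraries. Replicate 2 of inducible HIF-1α was lower than replicate 1 in all 10 genes, with a median log2 ratio of -1.10, while over all tested genes 50.4% were lower in it. Without inducible HIF-1α replicate 1, 9 of the 10 genes fell, all but Myd88, where 19.7% of all tested genes were called lower. Without inducible HIF-1α replicate 2, 7 fell (Tlr1, Tlr2, Tlr7, Tlr8, Tlr9, Tlr13 and Cd14), with 7.64% of all genes called lower, and Tlr4 had a log2 fold change of 0.056. Without wild-type replicate 1 the median log2 fold change of the 10 was -1.53, and without wild-type replicate 2 it was -1.69. Hardly any gene of the whole table passed in those fits, so their calls cannot speak for these 10. Each of these fits has 1 sample in a group, which is assumed to vary like the other group. The log2 fold changes of Tlr8 stayed between -3.68 and -2.40 and those of Tlr1 between -2.60 and -1.98 over all 14 alternatives. DESeq2 and edgeR's exact test each called the same 6 genes lower (Tlr1, Tlr2, Tlr7, Tlr8, Tlr9 and Tlr13), where these tools called 5.69% and 6.57% of all genes lower. Limma-voom called 4 lower (Tlr1, Tlr8, Tlr9 and Tlr13), with 1.36% of all genes called lower. With total count scaling neither Tlr1 (adjusted p = 0.0538) nor Tlr8 (adjusted p = 0.0563) passed, and with the 10 most abundant genes left out Tlr8 did not (adjusted p = 0.051). Over the alternatives the adjusted p ran from 9.63e-14 to 0.613 for Tlr1 and from 1.29e-30 to 0.593 for Tlr8, lowest without inducible HIF-1α replicate 1 and highest without wild-type replicate 2.

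**Figure D3:**
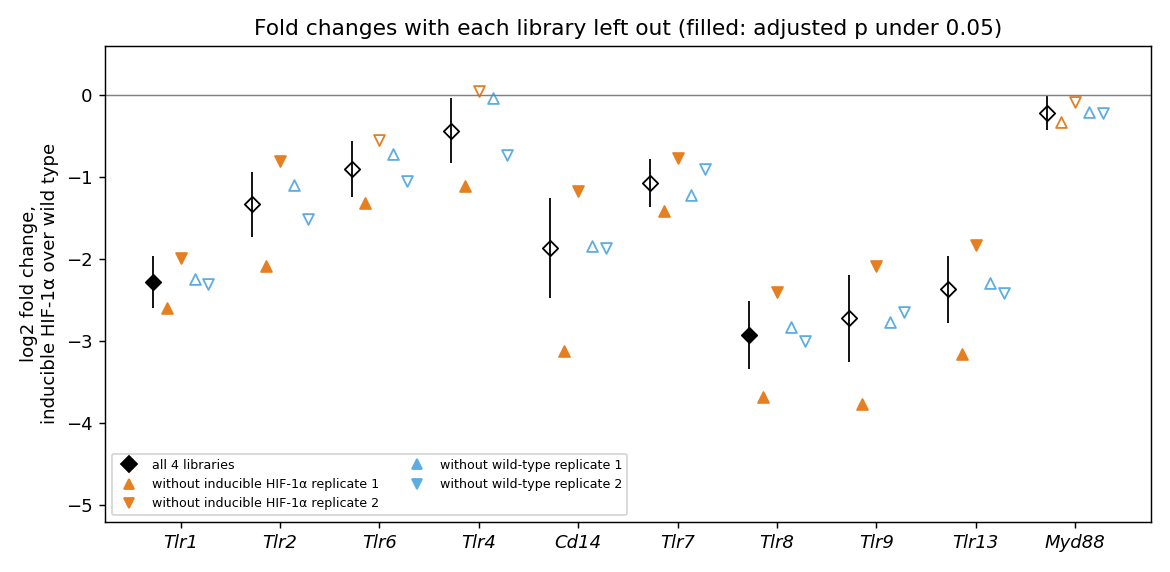
Log2 fold changes (inducible HIF-1α over wild type) of the 10 genes with all 4 libraries (black, with SE) and with each library left out in turn; filled marks have an adjusted p under 0.05. Leaving out an inducible HIF-1α library (orange) moved Cd14 from -1.86 to -3.12 or -1.16. With a wild-type library left out (light blue, open marks) Cd14 was at -1.84 or -1.86, and hardly any gene of the whole table passed.

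The genes that work beside the receptors were taken from lists written with earlier results of these data known, and are described by counts. The 4 other Toll-like receptor genes were Tlr3, Tlr5, Tlr11 and Tlr12, none of which passed in edgeR's quasi-likelihood test, with 1 lower at an unadjusted p under 0.05, against 11.5% of all tested genes. The smallest p among them was that of Tlr5, the flagellin receptor gene, with 1.82 and 0.486 CPM in inducible HIF-1α, against 7.58 and 10.7 CPM in wild type (log2 fold change -2.98 ± 0.62, adjusted p = 0.0886), and it was called lower by DESeq2 and edgeR's exact test but not by limma-voom. The median log2 fold change of the 4 was -0.55. Tlr3 (0.047) and Tlr11 (-0.32) overlapped between the genotypes, and Tlr12 (-0.79) did not. Of 17 accessory, trafficking and processing genes 2 fell and none rose in edgeR's quasi-likelihood test, all 17 had fold changes below 0, and the median was -1.16. DESeq2 called 9 of them lower, edgeR's exact test 8 and limma-voom 3. Slc15a3, an endosomal peptide and histidine transporter gene, fell to 1.24 and 0.711 CPM in inducible HIF-1α, against 11.5 and 14.5 CPM in wild type (-3.74 ± 0.41, adjusted p = 0.0169). Lgmn, which encodes a lysosomal protease that can cleave endosomal receptors, fell to 3.91 and 3.37 CPM, against 15.8 and 16.8 CPM in wild type (-2.16 ± 0.28, adjusted p = 0.0236). Unc93b1, which encodes the chaperone that carries endosomal receptors out of the endoplasmic reticulum and was picked after its values were seen, had 46.7 and 21.3 CPM in inducible HIF-1α and 96.3 and 112 CPM in wild type (-1.62 ± 0.36, adjusted p = 0.104), and was called lower by DESeq2 and edgeR's exact test but not by limma-voom. Ly96, encoding the TLR4 co-receptor MD-2 and picked likewise, was counted little, with 34 and 8 counts in inducible HIF-1α and 38 and 28 counts in wild type, or 1.32 and 0.299 CPM in inducible HIF-1α and 1.42 and 1.29 CPM in wild type (adjusted p = 0.686).

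Downstream of the receptors the medians lay nearer to 0 than the -1.60 of the 10 genes. None of 23 adaptor and proximal signalling genes was called by edgeR's quasi-likelihood test, and their median log2 fold change was -0.064, against 0.0010 for all tested genes. At an unadjusted p under 0.05, 3 of the 23 were lower and none higher, where 11.5% of all tested genes were lower. Irf5, a transcription factor gene of MyD88-dependent cytokine induction, had the smallest p of that list, with 8.60 and 2.81 CPM in inducible HIF-1α and 30.3 and 33.9 CPM in wild type (-2.49 ± 0.49, adjusted p = 0.0811), and was the 1 gene of the list that DESeq2, edgeR's exact test and limma-voom called. Of 11 tested negative regulators none was called, 2 were lower and 1 higher at an unadjusted p under 0.05, and the median was -0.10. Lyn, a Src family kinase gene, had the smallest p, with 175.8 and 140.8 CPM in inducible HIF-1α, against 330 and 324 CPM in wild type (-1.05 ± 0.19, adjusted p = 0.0683), and was the 1 gene of its list called by those tools. Of 20 transcripts known to be induced by these receptors 12 were counted enough to be tested, all with fold changes below 0 and a median of -0.73, and none was called. At an unadjusted p under 0.05, 5 of them were lower, and DESeq2 called 3, edgeR's exact test 4 and limma-voom 0. Lcn2, called by DESeq2 and the exact test, is also in the neutrophil list. Il1b, encoding interleukin-1β, had the smallest p, with 3.37 and 1.98 CPM in inducible HIF-1α and 15.2 and 10.4 CPM in wild type (adjusted p = 0.059). Il10, Il12b and Ifnb1 had 0 counts in all 4 libraries.

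Of 15 tested receptors of other pattern recognition families 2 fell and none rose in edgeR's quasi-likelihood test, and the median was -0.96. DESeq2 and edgeR's exact test each called 6 lower (Fpr1, Clec4d, Nlrp3, Nod2, Clec4e and Clec7a) and 1 higher (Ifih1), and limma-voom called 2 lower. Nlrp3, an inflammasome sensor gene, fell to 2.79 and 1.95 CPM in inducible HIF-1α, against 16.5 and 21.4 CPM in wild type (-3.0 ± 0.34, adjusted p = 0.017). Fpr1, a formyl peptide receptor gene that is also in the neutrophil list, fell by 2.48 on the log2 scale (adjusted p = 0.0236). Ifih1, the gene of the cytosolic RNA sensor MDA5, picked after its values were seen, lay on the other side, with 61.8 and 51.4 CPM in inducible HIF-1α and 29.5 and 27.3 CPM in wild type (0.99 ± 0.21, adjusted p = 0.0886).

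Markers of blood cell types known to carry these receptors were read in the same libraries. Both inducible HIF-1α libraries lay below both wild-type libraries in 19 of 20 monocyte and macrophage markers, 13 of 14 neutrophil markers, 14 of 14 B cell markers and 6 of 10 tested dendritic cell markers, against 28.2% of all tested genes. The monocyte and macrophage list had 8 falls and no rise among its 20 genes in edgeR's quasi-likelihood test (15 falls with DESeq2, 15 with edgeR's exact test and 3 with limma-voom) and a median log2 fold change of -1.50. Its summed level was 6265 and 3140 CPM in inducible HIF-1α, against 13566 and 11597 CPM in wild type. Lyz2, the lysozyme gene, made up between 77.2% and 84.0% of that sum. Of this list Ms4a7, picked for its 0 counts in both inducible HIF-1α libraries, had only 27 and 14 counts in wild type (adjusted p = 0.114). The neutrophil list had 3 falls and no rise among 14 genes (10 falls with DESeq2, 10 with the exact test and 5 with limma-voom) and a median of -1.29. Its sum was 15128 and 6930 CPM in inducible HIF-1α and 22549 and 21224 CPM in wild type. The B cell list had 12 falls and no rise among 14 genes and a median of -5.34, and its sum was 28.9 and 14.6 CPM in inducible HIF-1α, against 698 and 670 CPM in wild type. Pax5, a defining B cell marker and picked likewise, was at 0 counts in both inducible HIF-1α libraries. Of 10 tested dendritic cell markers 2 fell, Irf4 and Siglech, and none rose, and the median was -1.14. At an unadjusted p under 0.05, 4 were lower, as were 11.5% of all tested genes. The 1 that was higher was Zbtb46, picked after its values were seen, with 10.7 and 14.9 CPM in inducible HIF-1α and 7.13 and 7.11 CPM in wild type (adjusted p = 0.226). The sum of all 13 was 81.5 and 58.1 CPM in inducible HIF-1α and 155 and 188 CPM in wild type. Irf4 alone had 4.69 and 1.09 CPM in inducible HIF-1α and 73.1 and 97.7 CPM in wild type, and without it the sum was 76.9 and 57.0 CPM in inducible HIF-1α and 81.8 and 90.6 CPM in wild type. The erythroid list lay on the other side, with a median of 0.82 over 10 genes, 5 higher and 2 lower at an unadjusted p under 0.05 and a sum of 3720.5 and 6474 CPM in inducible HIF-1α, against 2659 and 2792 CPM in wild type. Of that list Tfrc, the transferrin receptor gene, rose to 2262 and 3168 CPM in inducible HIF-1α, against 663 and 522 CPM in wild type (2.20 ± 0.26, adjusted p = 0.019). Tfrc was the largest part of the inducible HIF-1α sums, and the sum without it was not computed, so the gap between the sums may rest on Tfrc. Both inducible HIF-1α libraries lay above both wild-type libraries in 6 of the 10 erythroid genes and below them in 2. The 2 lower genes, picked after their values were seen, were Alas2 (-1.50 ± 0.27, adjusted p = 0.0602) and Slc4a1 (-0.98 ± 0.40, adjusted p = 0.286). DESeq2 called 2 of the list higher and 1 lower, and edgeR's exact test and limma-voom each 1 higher and 1 lower. The gene called lower was Alas2 each time. The part of these cells in the receptor values was not tested.

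The summed level of the 10 genes was 174 and 94.5 CPM in inducible HIF-1α, against 347 and 305 CPM in wild type. Expressed as a share of the summed monocyte and macrophage markers it was 2.78% and 3.01% in inducible HIF-1α and 2.55% and 2.63% in wild type. With Lyz2 left out of the markers it was 12.2% and 15.0% in inducible HIF-1α and 16% and 14.3% in wild type, where the groups overlapped. As a share of the neutrophil markers it was 1.15% and 1.36% in inducible HIF-1α and 1.54% and 1.44% in wild type. Of the summed level, Myd88 gave 31.1 and 27.1 CPM in inducible HIF-1α and 33.8 and 33.9 CPM in wild type. Myd88 was thus a larger part of the inducible HIF-1α sums, which raises their shares, and shares without it were not computed. In inducible HIF-1α the receptors and both myeloid marker sums were lower in replicate 2 than in replicate 1. The same held for the B cell and dendritic cell sums and for 13 of 15 stem and progenitor cell markers. The erythroid sum was higher in replicate 2.

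**Figure D4:**
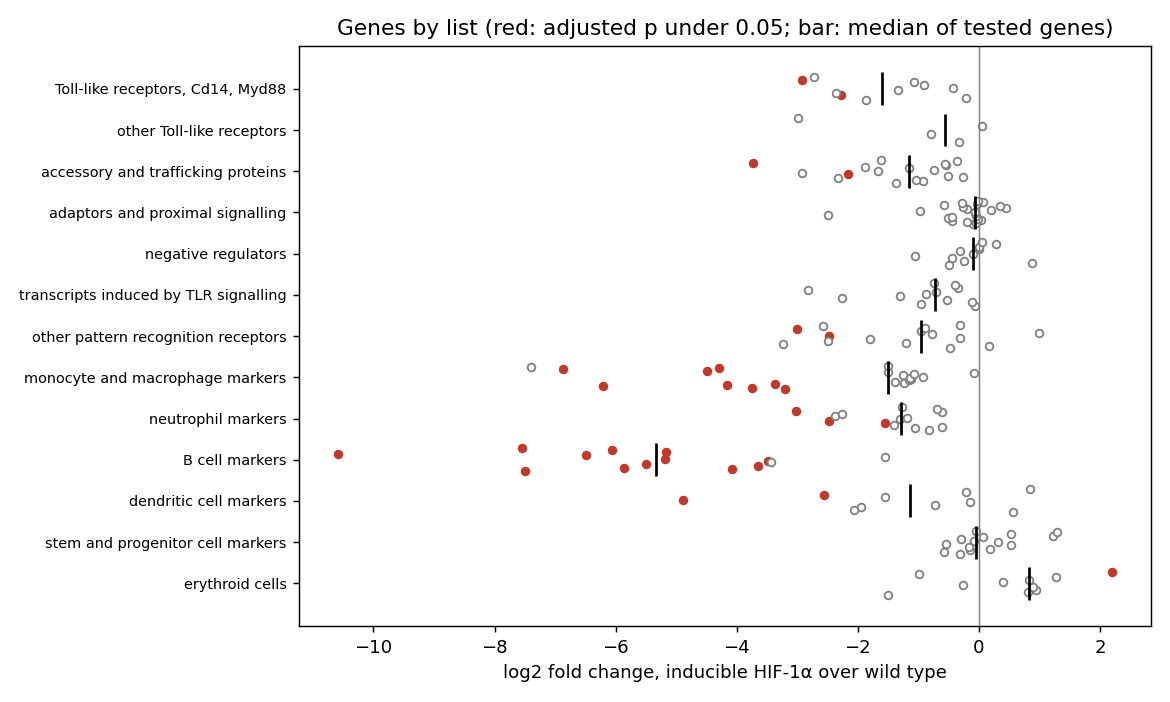
Log2 fold changes (inducible HIF-1α over wild type) of each tested gene by list, red where the adjusted p is under 0.05, with a bar at the median. The median is -1.60 for the 10 genes, -1.50 for monocyte and macrophage markers and -1.29 for neutrophil markers. Accessory genes (-1.16), dendritic cell markers (-1.14) and other pattern recognition receptors (-0.96) follow closely. The B cell markers lie far lower (-5.34), and the adaptor and signalling genes are centred at -0.064. The 4 other Toll-like receptors have a median of -0.55.

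For each of the 10, the tested genes with the most alike profile were found as those with the smallest root mean square difference in log2 CPM, each profile centred on its own mean over the 4 libraries. For Tlr13 these were Mmp9 (0.059) and Mmp8 (0.064), which encode matrix metalloproteinases of neutrophils, and Cd300lb (0.095). For Tlr8 they were Jaml (0.089), Jchain (0.092), which encodes the joining chain of antibodies, and the neutrophil marker gene Retnlg (0.11). For Tlr9 they were Gimap3 (0.096), Ly6f (0.099) and Cd74 (0.099), the gene of the MHC class II invariant chain. For Tlr1 the nearest was Xist (0.064), for Tlr2 Hivep2 (0.048), for Tlr4 Lmo4 (0.026), for Tlr6 Stx7 (0.038), for Tlr7 Map3k3 (0.025) and for Cd14 Cd302 (0.082). For Myd88 they were Gosr1 (0.011), Vapa (0.017) and Ncstn (0.018). Among the 10 themselves, Tlr8 and Tlr9 were nearest to each other (0.18), as were Tlr6 and Tlr7 (0.25). With 4 libraries many of the 14043 genes can lie this close, so these distances are descriptions only.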

How the data were processed

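Raw counts per Entrez gene, 1 column per library, were deposited by the authors for 4 libraries. Per the submitters' processing notes the build was mm10 and bcl2fastq, CASAVA 1.8, TopHat and edgeR were used. The counting tool, annotation, strand setting and treatment of multi-mapped reads are not given in the sources. RefSeq symbols and coordinates of GRCm38.p6 (mm10) were assigned by identifier, and 81 of 24415 had no match (0.911% to 1.45% of a library's counts).

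Genes were kept by filterByExpr (minimum count 10), scaled by TMM and tested with edgeR 4.0.16 (glmQLFit and glmQLFTest, R 4.3.3) over all 4 libraries, inducible HIF-1α against wild type, with Benjamini-Hochberg adjustment over 14043 genes and a threshold of 0.05. All adjusted p-values come from this test unless another tool is named. SE is the log2 fold change divided by the square root of F. The script was tested on simulated data with the same spread in both genotypes, which the real libraries did not have. Alternatives were other scalings, edgeR's exact test, limma-voom (limma 3.58.1), DESeq2 1.42.0, other filters, the 10 most abundant genes left out, each library left out and a replicate block.

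The 10 genes and all lists were chosen with earlier results of these data known. Named beside the 10 are, for each pathway list, its called genes or else the 1 with the smallest p, a rule that in marker lists also takes the most abundant gene, and not every gene it takes is given. Others are marked as picked, which was done after their values were seen. Motifs were chosen by their known factors, also after values were seen. Shared stretches of 50 bases and exon lengths come from GENCODE vM21 (GRCm38). The limit of 3 counts covers counting error only.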

Additional observations from a re-analysis of the deposited data

How the results depend on the processing

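The 10 genes gave 2 calls, and 2 also with DESeq2-type size factors, upper quartile scaling or the stricter filter (1 CPM or more in every library), which removed Tlr9 and Cd14. The number was 0 with total count scaling (7 genes at an unadjusted p under 0.05 in edgeR's quasi-likelihood test), 1 with the 10 most abundant genes left out, 4 with limma-voom, 5 without a filter, 6 with DESeq2 under its own size factors and 6 with edgeR's exact test. Leaving out 1 library gave from 0 to 9. Over all genes, 157 calls became 97 with total count scaling, 971 with DESeq2, 1107 with the exact test, 747 without a filter and 78 with the stricter filter, and from 0 to 4669 with 1 library left out. The replicate block, for numbers shared by the labels only (correlation of replicate deviations over genes 0.0785), gave 5 calls among the 10 and 381 over all genes. The log2 fold change of Tlr4 was 0.056 without inducible HIF-1α replicate 2 and -1.10 when replicate 1 of that genotype was left out instead. The value of 0.056 was the only change of sign among the 10 in any alternative. The causes were not tested. Depth limits Cd14 and Tlr9 most, with 21 and 25 counts in inducible HIF-1α replicate 2.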
